A study of Mus musculus with 2 samples.

Results

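The core cardiac transcription factors described here are 10 genes taken by name, Gata4, Gata6, Nkx2-5, Tbx5, Tbx20, Hand1, Hand2, Srf, Myocd and Tead1, among the 55536 Ensembl genes of the gene table. Each name matched 1 gene, and 9 of the 10 passed 1 TPM in each library. TPM is a level per transcript length, relative to all transcripts of a library. The tissue was heart, taken from B6CASTF1/J females (offspring of a C57BL/6J by CAST/EiJ cross) aged 18 to 20 months and supplied by The Jackson Laboratory. The study holds 1 group, with replicates 1 and 2 and no treatment, so nothing here is a test of a condition. The labels give the libraries separate biosamples but 1 donor entry, so the spread between them measures these 2 samples and may be technical in part. Each library started from 300 ng of total RNA reduced in ribosomal RNA, contained the ERCC set of synthetic control RNAs, and reached 35897521 and 36926429 expected counts. How reads with CAST/EiJ alleles fared against the reference genome was not tested.

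GATA4, the homeodomain protein NKX2-5 and TBX5 bind DNA and one another at the enhancers of cardiomyocyte genes, and GATA6 and TBX20 share much of that work. HAND1 and HAND2 are basic helix-loop-helix proteins known for shaping the left and right ventricle of the embryo. SRF binds CArG boxes in promoters of muscle and of growth-response genes, and myocardin, encoded by Myocd, binds SRF as a strong coactivator in cardiac and smooth muscle. TEAD1 binds MCAT elements of muscle genes and is the DNA-binding partner of YAP and TAZ at the end of the Hippo pathway. In the adult heart most of these genes remain active and support the contractile programme.

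Among the GATA and NKX2 members, the means ran from Gata4 through Nkx2-5 down to Gata6. Gata4 (chr14:63198922-63271692, minus strand; all coordinates are mm10) had levels of 55.89 TPM (replicate 1) and 33.47 TPM (replicate 2), from 3946 and 2554 expected counts. Its mean was 44.7 ± 15.9 TPM (SD, n = 2), the widest spread among the 10 genes. Gata6 (chr18:11052064-11085635, plus strand) had 27.45 and 25.43 TPM from 1976 and 2193 expected counts, a mean of 26.4 ± 1.43 TPM. Within a library Gata4 exceeded Gata6 by 1.02 on the log2 scale in replicate 1 and by 0.39 in replicate 2, and the kallisto-layout table gave 1.09 and 0.33. Gata4 was thus the higher GATA gene in both libraries, by a margin that differed between them. Nkx2-5 (chr17:26838664-26845009, minus strand) had 35.81 and 29.42 TPM from 1422 and 1230 expected counts, a mean of 32.6 ± 4.52 TPM.

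Of the T-box members, Tbx20, an activator and repressor that maintains adult cardiomyocytes, stood well above Tbx5, which is best known for the atria, the left ventricle and the conduction system. Tbx20 (chr9:24718138-24774303, minus strand) had 40.50 and 31.56 TPM from 6818 and 5252 expected counts, a mean of 36.03 ± 6.32 TPM. Tbx5 (chr5:119832668-119885219, plus strand) had 11.41 and 10.04 TPM from 1035 and 879 expected counts, a mean of 10.7 ± 0.969 TPM, the lowest of the 9 genes with reads. The log2 ratio of Tbx20 over Tbx5 was 1.82 and 1.64 in the RSEM-layout table and 1.29 and 1.09 in the kallisto-layout table.

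Tead1 and Srf were among the 3 highest of the set, and Myocd lay below the median of the 9 genes with reads. Srf (chr17:46548329-46556175, minus strand) had 49.97 and 36.40 TPM from 3000 and 2267 expected counts, a mean of 43.2 ± 9.60 TPM. Myocd (chr11:65176561-65269989, minus strand) had 30.36 and 25.49 TPM from 3714 and 3407 expected counts, a mean of 27.9 ± 3.44 TPM. The transcription factor was thus above its coactivator in both libraries, by 0.72 and 0.51 on the log2 scale, and by 0.40 and 0.17 in the kallisto-layout table. Tead1 (chr7:112679318-112906807, plus strand) was highest of all, with 68.83 and 59.11 TPM from 11344 and 10583 expected counts, a mean of 64.0 ± 6.87 TPM. It exceeded Srf by 0.46 and 0.70 on the log2 scale.

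The HAND pair divided completely. Hand2 (chr8:57320983-57324633, plus strand) had 20.83 and 29.64 TPM from 1310 and 1964 expected counts, a mean of 25.2 ± 6.23 TPM, and was the one member with reads that was higher in replicate 2 under each scaling tried. Hand1 (chr11:57828705-57832818, minus strand) had 0 counts in both libraries and in both kinds of table. A count of 0 allows up to 3 counts, which for Hand1 is 0.0856 TPM in replicate 1 and 0.0812 TPM in replicate 2. Against that limit, taken per library at the length listed for the gene, Hand2 was 243-fold higher in replicate 1 and 365-fold higher in replicate 2. The limit depends on the estimate: the deposited posterior TPM of Hand1 was 0.18 and 0.17, with upper credibility bounds of 0.452 and 0.431, and against those bounds Hand2 was 46.0-fold and 68.8-fold higher. The 2 genes code for similar proteins, so a stretch of their coding sequence is shown to see whether reads could pass from one to the other. Capitals mark the longest run of coding bases present in both, 17 bases long, at chr11:57831401-57831417 in Hand1 and chr8:57322291-57322307 in Hand2, with 30 bases on either side.
Hand1: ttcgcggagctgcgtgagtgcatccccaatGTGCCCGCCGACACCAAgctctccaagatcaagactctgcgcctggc
Hand2: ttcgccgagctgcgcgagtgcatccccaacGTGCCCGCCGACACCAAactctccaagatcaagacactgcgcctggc
No 31-base stretch of Hand1 occurred in the transcripts of any other gene, and 2 of the 2321 such stretches of Hand2 occurred elsewhere, both of them in Wasl. Shared stretches made up at most 1.09% of the 31-base words of any member, the value of Tbx5.

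**Figure D1:**
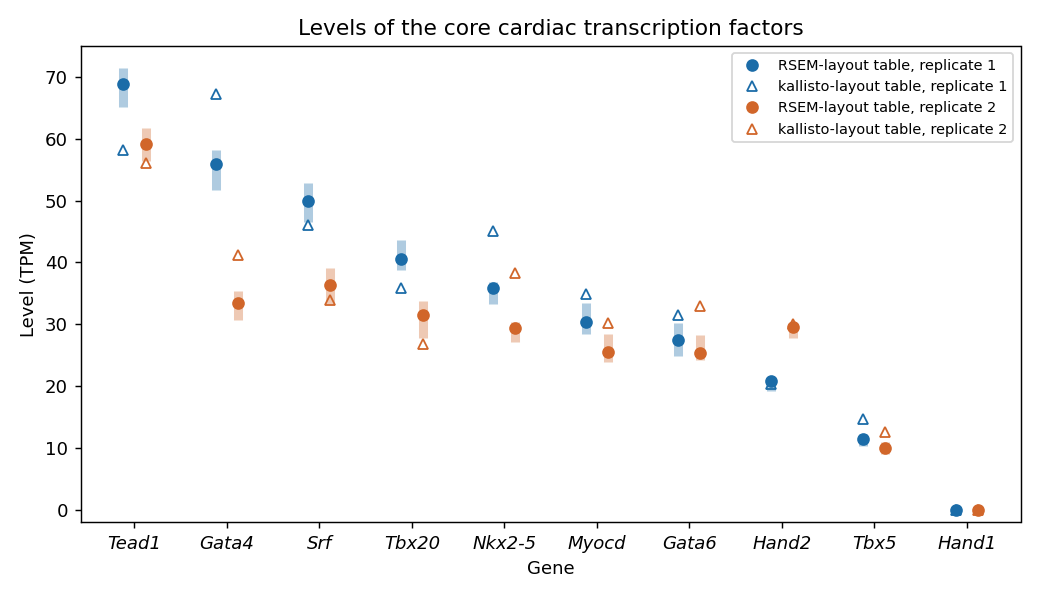
Level of each core factor in TPM, ordered by its mean in the RSEM-layout table. Filled circles are the RSEM-layout values with the deposited credibility interval as a bar, open triangles the kallisto-layout values, and the colours are the 2 libraries; Tead1 is highest at 68.83 and 59.11 TPM, Gata4 has the widest gap between libraries, and Hand1 lies at 0.

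Ordered by mean TPM the set ran Tead1, Gata4, Srf, Tbx20, Nkx2-5, Myocd, Gata6, Hand2, Tbx5 and Hand1. Neighbours in that order were called apart where the ranges of their 2 libraries did not overlap, which held for 3 of the 9 neighbouring pairs, Tead1 over Gata4, Hand2 over Tbx5 and Tbx5 over Hand1. The 7 genes from Gata4 to Hand2 formed a chain in which no neighbours were apart. The top of the order depended on the table, since in the kallisto-layout table Gata4 had 67.2 and 41.3 TPM against 58.1 and 56.0 TPM for Tead1. There Tead1 and Gata4 overlapped, while Tbx5, at 14.7 and 12.6 TPM, and Hand1 kept the last places. Middle places moved too: Tbx20 was in place 4 in both libraries of the RSEM-layout table, but in places 5 and 8 in the kallisto-layout table. Among 22015 nuclear protein-coding genes Tead1 ranked 881, Gata4 1295, Srf 1347, Tbx20 1632, Nkx2-5 1826, Myocd 2125, Gata6 2243, Hand2 2340 and Tbx5 4865. The median of the 9 genes was 32.6 TPM, against 8.98 TPM over the 10991 nuclear protein-coding genes that passed 1 TPM in each library.

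The nearest relatives of the members were mostly low or without reads. Of 28 other GATA, NKX2, T-box and TEAD genes, 8 passed 1 TPM in each library, and the median over all 28 was 0.0850 TPM. Mga, a MAX partner that carries a T-box, was the highest with 15.1 ± 0.523 TPM and so above Tbx5 in both libraries. Gata2, a factor of blood and endothelial cells, followed with 5.73 and 9.09 TPM, and Tead3 with 5.70 and 5.19 TPM. Tead1 exceeded each other TEAD gene in both libraries, and Gata4 and Gata6 exceeded each other GATA gene. No other NKX2 gene exceeded 0.1 TPM in either library of the RSEM-layout table. In the kallisto-layout table the highest value of these was 0.185 TPM, for Nkx2-1 in replicate 2. The list held 7 genes at 0 in both libraries, among them Nkx2-3, Nkx2-4, Nkx2-6, Tbx10, Tbx19 and Tbx22. Among the 8 genes that passed 1 TPM in each library, the highest log2 ratio between the libraries was that of Tead4, 0.75 from 1.11 and 1.93 TPM. The lowest of the 8 was that of Tbx3, a transcriptional repressor active in the conduction system, -0.47 from 5.48 and 3.92 TPM.

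**Figure D2:**
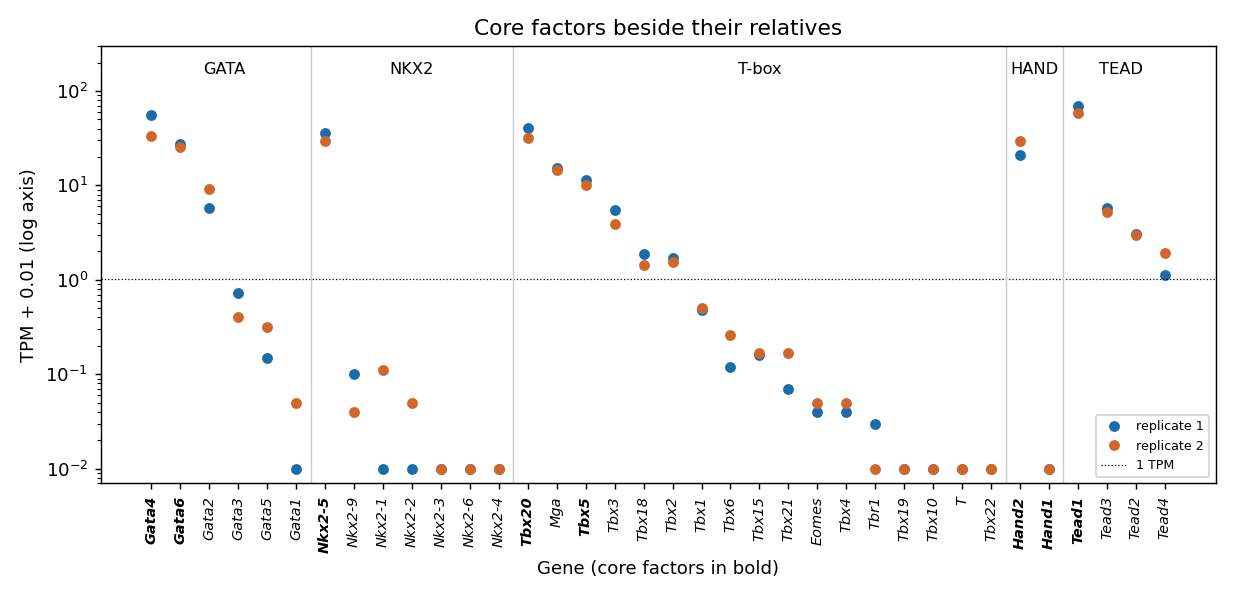
TPM + 0.01 on a log axis for the core factors, in bold, and the other genes of their families, with 1 point per library and a dotted line at 1 TPM. Each of the GATA, NKX2 and TEAD groups is led by a core factor, whereas Mga, at 15.45 and 14.71 TPM, stands between Tbx20 and Tbx5, and Hand1 has no reads.

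Annotated transcripts numbered 51 over the 10 genes, and the leading transcript was the same one in both libraries and in both kinds of table for all 9 genes with reads. Below the leading transcript the tables often divided the reads differently. Hand2 has a single transcript. Nkx2-5-201 held 97.85% and 97.02% of its gene in the RSEM-layout table but 65.4% and 67.6% in the kallisto-layout table, where Nkx2-5-202 took the rest. Gata6-201 held 76.76% and 88.39%, and Tbx5-201 79.20% and 69.99%, with Tbx5-202 at 17.26% and 23.26%. Srf-201 held 83.26% and 82.00%, while the short Srf-202 held 13.10% and 16.62% in the RSEM-layout table and 0 in the kallisto-layout table. Shares divide TPM, which is per length, so a short transcript can hold a sizeable share from few reads. Srf-202, with 376 bases, had 50.6 and 49.3 expected counts against 2924 and 2210 for Srf-201. Tbx5-202 had 58.9 and 73.6 against 970 and 794 for Tbx5-201.

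**Figure D3:**
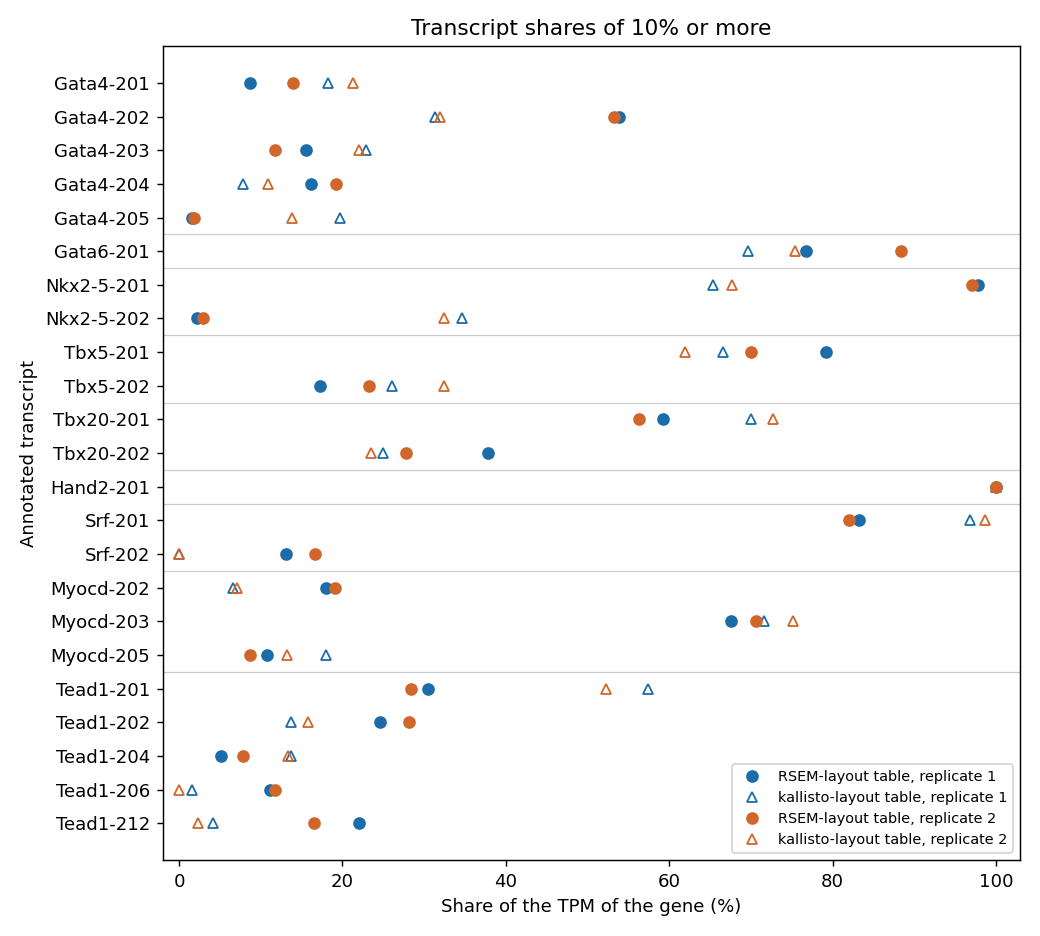
Share of the gene's TPM, in percent, of each annotated transcript that reached 10% in both libraries of at least 1 table. Filled circles are isoform percentages of the RSEM-layout table and open triangles shares in the kallisto-layout table; the tables lie further apart than the libraries for Nkx2-5, Srf-202, Tead1-201 and Tead1-212.

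Myocd was read mainly as its longest annotated coding form. Myocd-203, with 983 codons, held 67.55% and 70.65% of the gene, and Myocd-202, with 935 codons, 17.96% and 19.05%. The noncoding Myocd-205 held 10.72% and 8.71%, but 17.9% and 13.2% in the kallisto-layout table. These shares are per length: with 377 bases it had 25.3 and 18.2 expected counts, of 3714 and 3407 for the gene. Myocd-201, with 855 codons, was listed at 0 in the RSEM-layout table and at 0.546 and 0.966 TPM in the kallisto-layout one. The coding regions of the 2 leading forms differ by a 144-base exon at chr11:65184488-65184631, which adds 48 codons, and the transcripts differ by a further 35 bases outside the coding region. The exon is shown in capitals with 15 bases on either side, above the same junction without it, since it separates the coding forms.
Myocd-203: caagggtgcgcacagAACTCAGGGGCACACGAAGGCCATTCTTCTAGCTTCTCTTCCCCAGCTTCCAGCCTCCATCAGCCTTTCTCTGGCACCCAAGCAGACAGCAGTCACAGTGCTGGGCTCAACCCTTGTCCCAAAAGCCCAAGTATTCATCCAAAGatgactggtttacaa
Myocd-202: caagggtgcgcacagatgactggtttacaa
Transcripts with this exon held 79.0% and 78.7% of the TPM of those with or without it, and 91.7% of it in each library by the kallisto-layout table. The exon was thus in most Myocd transcripts at shares that were close between the libraries and differed between the tables.

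Tead1 was spread over the most transcripts. Tead1-201, with 436 codons, held 30.46% and 28.45%, Tead1-202, with 411 codons, 24.54% and 28.09%, Tead1-212, with 357 codons, 21.98% and 16.52%, and Tead1-206, with 436 codons, 11.14% and 11.70%. In the kallisto-layout table Tead1-201 held 57.4% and 52.3%, Tead1-212 only 4.15% and 2.35%, and Tead1-206 only 1.58% and 1.92e-09%. Tead1-204, with 415 codons, passed 10% there with 13.7% and 13.3%. By expected counts, which are not per length, Tead1-212 had 412 and 280, Tead1-206 299 and 284, and Tead1-201 5774 and 4881. Most of these forms are told apart by 3 alternative coding exons, of 63, 12 and 174 bases. The first is followed in Tead1-201 by an exon of the same length at chr7:112842040-112842102, and the bases of the pair are identical at 44 of 63 positions (69.8%). Both are shown with 15 bases on either side and the exon in capitals, then the 12-base exon at chr7:112856053-112856064 in the same way.
Tead1 63-base exon: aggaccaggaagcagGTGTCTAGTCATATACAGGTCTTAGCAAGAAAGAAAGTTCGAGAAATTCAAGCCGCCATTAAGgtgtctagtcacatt
Tead1 next exon: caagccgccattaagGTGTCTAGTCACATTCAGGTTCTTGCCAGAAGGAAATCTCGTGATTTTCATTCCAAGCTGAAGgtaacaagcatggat
Tead1 12-base exon: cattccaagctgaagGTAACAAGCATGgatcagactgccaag
Transcripts with the first 63-base exon (chr7:112841888-112841950) held 44.7% and 42.7% of the TPM of transcripts with or without it, and 66.2% and 55.6% in the kallisto-layout table. The 12-base exon was included at 74.1% and 69.9%, and at 84.7% and 83.9% in the kallisto-layout table. The 174-base exon (chr7:112876075-112876248), absent from Tead1-212, was included at 77.2% and 82.8%, and at 95.7% and 97.6% in the kallisto-layout table. In both tables and libraries the 12-base and 174-base exons were the majority form, whereas for the 63-base exon the majority differed between the tables.

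Gata4 was divided among coding forms that differ little, a shorter coding form that starts downstream, and 5′ forms that start upstream. Gata4-202, with 441 codons, held 53.81% and 53.26%, and Gata4-201, with 442 codons, 8.74% and 13.99%. The kallisto-layout table gave Gata4-202 31.3% and 32.0% and Gata4-201 18.3% and 21.2%. They differ in the coding region by 3 bases at the start of 1 exon (chr14:63204756-63204758), in capitals here with 15 bases on either side, which shows how few bases separate them.
Gata4-201: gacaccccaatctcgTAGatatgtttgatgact
Gata4-202: gacaccccaatctcgatatgtttgatgact
The longer exon was read at 11.2% and 17.7% of the transcripts with either version, and at 25.2% and 28.2% in the kallisto-layout table, so the shorter version was the larger share throughout. Gata4-203, which starts 31641 bases downstream of Gata4-202 and codes for 236 codons, held 15.51% and 11.71%. In the kallisto-layout table Gata4-203 held 22.8% and 22.0%. Gata4-204, which starts 26444 bases upstream and is not annotated to its end, held 16.11% and 19.24%. With 653 bases it had 139 and 105 expected counts, against 2750 and 1718 for Gata4-202. Gata4-205, which starts 25876 bases upstream, held 1.61% and 1.80%, but 19.8% and 13.8% in the kallisto-layout table.

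Tbx20 had a long and a short coding form. Tbx20-201, with 445 codons, held 59.18% and 56.32%, and Tbx20-202, with 297 codons, 37.87% and 27.82%. The forms part after a shared exon, where the short one reads into a stop codon. Capitals mark the bases after that exon, at chr9:24727858-24727872 for the long form and chr9:24740697-24740703 for the short one, which ends with its stop codon.
Tbx20-201: cactgacattgagagGGAGAGTGTGGAGAG
Tbx20-202: cactgacattgagagGGAATGA
Of the TPM of these 2 forms, the long one held 61.0% and 66.9%, and 73.7% and 75.6% in the kallisto-layout table. Expected counts, which are not per length, were 6017 and 4703 for the long form against 729 and 440 for the short one. The long form was thus the larger in both libraries and both tables.

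**Figure D4:**
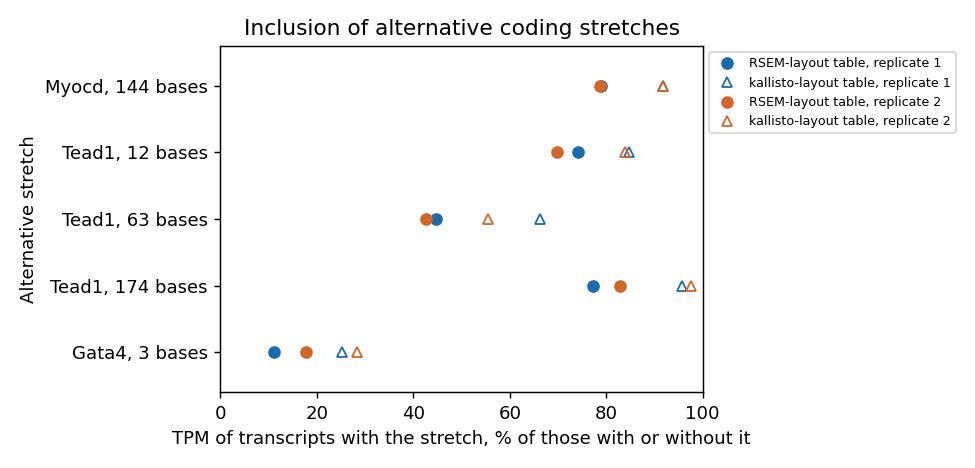
Inclusion of 5 alternative coding stretches, as the percent of TPM held by transcripts with the stretch among those with or without it. Filled circles are the RSEM-layout table and open triangles the kallisto-layout table, coloured by library; the Myocd exon lies at 78.7% to 79.0% in the first and at 91.7% in the second, and the tables differ more than the libraries for each stretch.

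Between the libraries, 8 of the 9 members with reads were lower in replicate 2 (7 of 9 where Gata6 turned, as given after the ratios), beside 45.7% of all 12510 genes whose mean reached 1 TPM and 50.3% of the 4759 genes whose mean was 10 to 100 TPM. The difference is given as the log2 ratio of TPM + 0.1, replicate 2 over replicate 1. Its median over the 9 members was -0.25, against 0.02 over all genes. In order the ratios were Gata4 -0.74, Srf -0.46, Tbx20 -0.36, Nkx2-5 -0.28, Myocd -0.25, Tead1 -0.22, Tbx5 -0.18, Gata6 -0.11 and Hand2 0.51. Gata6 turned to a small positive ratio, between 0.04 and 0.06, in the kallisto-layout table and after scaling by TMM, DESeq2 size factors or the spike-ins, which left 7 of 9 lower.

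Gata4 was the one member 1.5-fold or more apart, 1.67-fold higher in replicate 1. Beside it, 3.34% of all genes were that much lower in replicate 2, 10.8% were that far apart in either direction, and 4.92% of the genes of 10 to 100 TPM were. By expected counts per library total its ratio, replicate 1 over replicate 2, was 1.59, with an exact binomial 95% interval of 1.51 to 1.67 that covers counting error only. The ratio of Gata4 lay above those of 2.03% of all genes, and that of Hand2 above those of 90.9%. For Hand2 that ratio, replicate 2 over replicate 1, was 1.46, from 1.36 to 1.56. The deposited credibility intervals of the 2 libraries did not overlap for 6 of the 9 members, beside 18.1% of all genes. Of the 6, Gata4, Srf, Tbx20, Nkx2-5 and Tead1 were lower in replicate 2 and Hand2 higher. Such intervals narrow with more reads, and this share was not computed over the genes of 10 to 100 TPM.

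**Figure D5:**
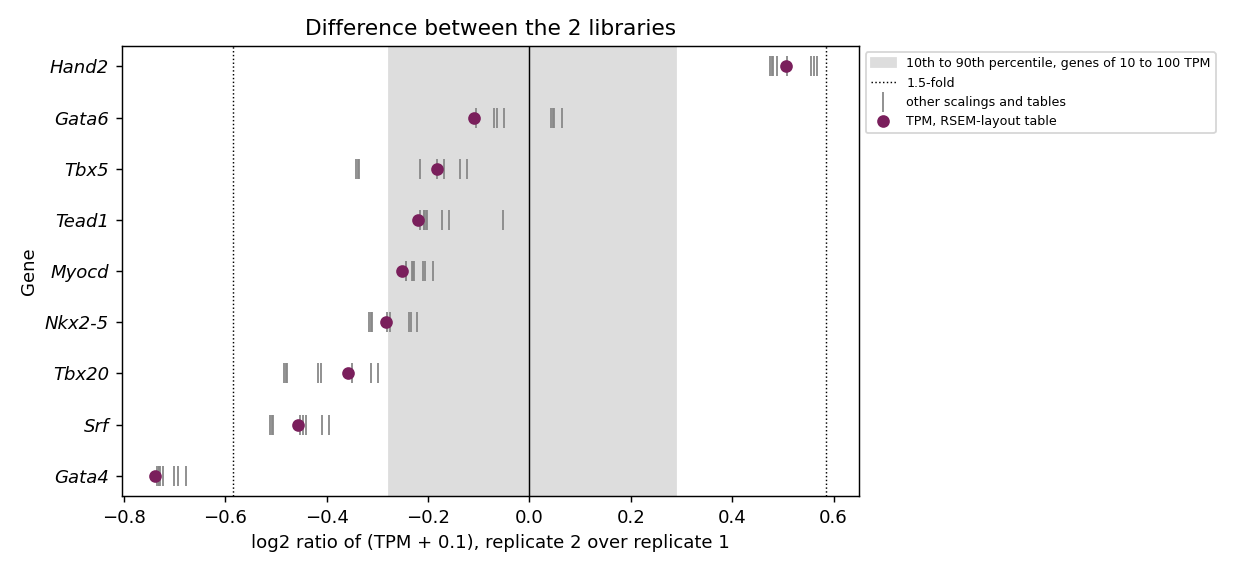
The log2 ratio of TPM + 0.1, replicate 2 over replicate 1, for the 9 core factors with reads. Circles are the RSEM-layout TPM, grey ticks the other scalings and the kallisto-layout table, the grey band the 10th to 90th percentile of genes of 10 to 100 TPM (-0.28 to 0.29), and dotted lines 1.5-fold; Gata4 at -0.74 lies past 1.5-fold and Hand2 at 0.51 is the one clearly above 0.

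The libraries also differed in markers of tissue and chamber. The heart label was checked with 8 cardiomyocyte markers, which summed to 35167 and 33721 TPM. All 8 were slightly lower in replicate 2 by TPM, but 4 of 8 over nuclear protein-coding genes and 1 of 8 in the kallisto-layout table, so they have no settled direction. Of the 8 ventricular markers all were lower in replicate 2 by TPM and 6 of 8 in the kallisto-layout table, 2 of them past 1.5-fold by TPM, with sums of 14180 and 13294 TPM. Atrial markers went the other way, 10 of the 11 at 1 TPM or more being higher in replicate 2, with sums of 738 and 1416 TPM over 12 genes. Endothelial markers summed to 422 and 486 TPM, but 7 of the 8 were lower in replicate 2 (5 to 7 over the scalings tried), and the sum was higher through Fabp4, chosen here after its values were seen, with 207 and 301 TPM. Fibroblast markers summed to 514 and 602 TPM, mural to 321 and 304, macrophage to 102.5 and 154.4 and mesothelial to 21.2 and 33.2. Adipocyte markers summed to 92.0 and 387 TPM, lymphocyte markers to 6.37 and 40.5, airway markers to 1.02 and 283 with Sftpc at 0, and erythroid markers to 23412 and 11151. Skeletal muscle markers summed to 1.34 and 0.860 TPM, with Myh2, Myh4 and Myog at 0. Scaled to the cardiomyocyte markers, the ratio of Gata4 was -0.68, that of Hand2 0.57, and 8 of 9 members were lower in replicate 2. The part of the other cell types in the members' differences was not tested, and in bulk RNA fewer cells of a type and less RNA per cell cannot be told apart.

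The partners of these factors were present throughout. All 20 listed cofactors passed 1 TPM in each library, and their median ratio was -0.03, or between -0.03 and 0.04 over the scalings and tables tried. The highest was Fhl2, a LIM protein that binds SRF, with 836 and 627 TPM, followed by Hopx, an SRF-binding homeodomain protein without DNA binding of its own, with 123 and 162 TPM, and Smyd1, a muscle methyltransferase, with 140 and 131 TPM. Their ratios ran from Casz1, a zinc finger transcription factor, with -0.50, to Mrtfa, a myocardin relative, with 0.60 from 2.55 and 3.91 TPM. For TEAD1, 15 of 17 Hippo pathway genes passed 1 TPM in both libraries with a median ratio of -0.04, or between -0.09 and 0.02. Yap1, the TEAD coactivator, had 33.2 and 27.6 TPM, Nf2, an upstream activator of the pathway, 30.8 and 29.9 TPM, and Amotl1, which retains YAP at junctions, 25.1 and 22.4 TPM. Ratios of those 15 genes ran from -0.40 for Amot to 0.36 for Stk4, a Hippo kinase. Of the other genes of the list, Vgll2 had -1.62 from 1.22 and 0.33 TPM, and Vgll1 was at 0 in both libraries.

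Textbook targets of the set did not share 1 direction. All 13 targets of GATA4, NKX2-5 and TBX5 passed 1 TPM in both libraries. By TPM 9 of them were lower in replicate 2, as were 7 over nuclear protein-coding genes and 4 in the kallisto-layout table. Their median ratio was -0.07, -0.02 and 0.02 in the same order. Myh6, alpha myosin heavy chain, had 8594 and 8547 TPM, Atp2a2, which pumps calcium back into the sarcoplasmic reticulum, 5619 and 4919 TPM, and Tnni3, cardiac troponin I, 4276 and 4030 TPM. The natriuretic peptide genes went opposite ways, Nppa from 228 to 531 TPM, a ratio of 1.22, and Nppb from 212 to 66.2 TPM, a ratio of -1.68. Nppa is also 1 of the atrial markers above.

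Of the 10 muscle targets of SRF, 9 passed 1 TPM in both libraries, with a median ratio of -0.09. Actc1, cardiac actin, had 5156 and 4843 TPM, Tpm1, a tropomyosin, 4004 and 3775 TPM, and Acta1, skeletal actin, 173 and 150 TPM, the lowest ratio of the list with -0.21. Cnn1, a smooth muscle calponin, had the highest of the 9 with 0.37. Actg2, below 1 TPM in both libraries, had 0.90 from 0.35 and 0.74 TPM. The immediate early targets were low, with 5 of 8 past 1 TPM in each library and a median ratio of -0.10. Of these 5, Mcl1 had 48.6 and 62.0 TPM and the highest ratio with 0.35. Junb had 7.10 and 5.41 TPM, and Ier2 5.59 and 5.21 TPM. Egr1, with 3.45 and 1.88 TPM, had the lowest ratio of the 5 with -0.84. Egr3, below 1 TPM in both libraries, had -1.16 from 0.68 and 0.25 TPM. Of the 9 TEAD and YAP targets all passed 1 TPM, with a median ratio of -0.01, or between -0.04 and 0.05 over the scalings and tables tried. Myh7, beta myosin heavy chain, had 908 and 872 TPM, Ankrd1 167 and 234 TPM, and Ccn2, a matricellular growth factor, 30.5 and 50.1 TPM, the highest ratio with 0.72, while Ajuba had the lowest with -0.30.

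Promoter sequence from RefSeq (GRCm38.p6) was at hand for 4 members, Nkx2-5, Tbx20, Hand2 and Srf, and 250 bases before the start were searched on both strands. Srf held 2 CArG boxes, the element its own protein binds, 82 to 73 and 62 to 53 bases before the start. They are printed since Srf was the one of the 4 with such a box, and 1.47% of 32851 promoters hold at least 1.
Srf first box: CCATATAAGG
Srf second box: CCATAAAAGG
Hand2 held 2 GATA motifs, which are GATA with an A or T before it and an A or G after it and which 26.5% of promoters hold. E-boxes, CANNTG, numbered 2 in Hand2 and 1 in Nkx2-5, beside 66.2% of promoters with at least 1. The TEAD motif GGAATG (12.6% of promoters) and the T-box motif AGGTGT (11.8%) were in none of the 4 windows. These matches describe letters in the window only.

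Several members have a noncoding gene on the other strand. Hand2os1, annotated across Hand2 (chr8:57281117-57324233, minus strand), had 64.62 and 59.58 TPM and so more than Hand2 per length in both libraries, although its 1156 and 1216 expected counts were fewer. Its log2 ratio was -0.12 where that of Hand2 was 0.51. In the kallisto-layout table Hand2os1 was higher in replicate 2, with 69.8 and 76.5 TPM, so its direction depended on the table. Of the 31-base words of Hand2, 17.3% lie on the other strand of another gene, and the sources used here do not say whether counting used strand, so reads of that overlap cannot be told apart. 1010001N08Rik, across Gata6, had 14.33 and 11.99 TPM. Gm43050, which starts 748 bases from Tbx5, had 5.19 and 5.15 TPM, and 2310014F06Rik, across the start of Tead1, 1.81 and 1.30 TPM. Gm29824 beside Tbx20 and Gm26904 over Srf had at most 0.02 TPM. Mir6976 (chr17:46553827-46553889), within Srf and on the same strand, had 0 TPM. It is shorter than the 99 bases by which lengths are typically reduced in the RSEM-layout table, so its 0 cannot show absence.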

How the data were processed

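For each of the 2 libraries of heart total RNA 3 tables were used, per the deposited readme on mm10 and GENCODE M21. Per the file headers, 2 have the column layout of RSEM (genes, transcripts) and 1 that of kallisto (transcripts); program versions and the aligner: not given in the sources used here. The expected counts deposited by the authors are estimated reads, with shared reads divided. The TPM deposited by the authors is scaled over all rows, spike-ins and mitochondrial genes included, and their FPKM values were deposited beside it and enter no result. Isoform percentages, deposited by the authors in percent, divide the TPM of a gene among its transcripts. The posterior mean TPM and the credibility bounds deposited by the authors, treated as a score, are estimates of the same levels.

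The members and the gene lists were chosen with earlier results of these data known. Levels are TPM per library with mean ± SD, ratios log2 of TPM + 0.1, and no test was possible with 1 group. Kallisto-layout transcripts were summed per gene. Named genes follow a rule: all members, the 3 highest of each list, its highest and lowest ratio among genes at 1 TPM or more in both libraries, its genes at 0, up to 6 names, member transcripts at 10% or more in both libraries of a table, and genes on the other strand or starting within 5 kb. For 0 counts a fixed limit of 3 was used, at these depths 0.0836 and 0.0812 CPM. Intervals from counts cover counting error only. Scaling factors came from edgeR 4.0.16 and DESeq2 1.42.0 in R 4.3.3, over genes with 10 or more counts. Ratios and counts used Python 3.11.15, pandas 2.3.3, numpy 2.4.6 and scipy 1.17.1, and were checked on simulated data. Reference sequence came from GENCODE M21 transcripts.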

Additional observations from a re-analysis of the deposited data

How the results depend on the processing

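The description of the members was repeated with the posterior mean TPM, the kallisto-layout table, TPM over nuclear protein-coding genes, a pseudocount of 1, TMM, DESeq2 and spike-in scaling, genes with any TPM and, chosen after seeing the data, scaling to cardiomyocyte markers. In each of these where it was computed, 1 member was 1.5-fold or more apart, 7 or 8 of 9 were lower in replicate 2, and the median ratio lay between -0.32 and -0.19. Neighbours apart in the order numbered 2 in the kallisto-layout table and 4 over nuclear protein-coding genes, against 3. The kallisto-layout table moved 17 of 18 transcript shares, 5 of 5 exon inclusions, 5 of 10 levels and 2 of 6 ratios between members by more than 1 SD, and the cause was not tested. Levels over nuclear protein-coding genes rose for 9 members by construction. Counts of list genes under each scaling and the credibility bound of Hand1 were also added after seeing the data. Leaving out replicate 1 or replicate 2 leaves 1 library and its value as printed. No paired analysis was possible because there is 1 group. Among the members depth limits Hand1, through its 0 counts, and 2 libraries limit every spread.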
